A study of Mus musculus with 2 samples.

Results

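The 7 genes described here were listed as genes of the hair shaft and its cuticle in mouse skin. They are the hair keratin genes Krt31, Krt35, Krt36 and Krt85 and the genes S100a3, Selenbp1 and Dapl1. They were chosen by symbol from the 56694 genes listed for each library, and all 7 had UMIs in both libraries. The cells called hair shaft-like below held under 50% of the UMIs of Dapl1 and Selenbp1 in both libraries. In control these cells also held under 50% of the UMIs of Krt31 and Krt36. A UMI (unique molecular identifier) stands for 1 captured RNA molecule. Krt85 was found by its identifier, ENSMUSG00000116336, which the deposited gene list calls Gm49425 and a later release of the same annotation calls Krt85.

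The data are 2 single-cell RNA libraries of back skin epidermal whole mounts at postnatal day 2, 1 library per genotype. Gli2EKO mice carried the K14Cre transgene and floxed Gli2 alleles, so Gli2, a transcription factor of Hedgehog signalling, is deleted where the keratin 14 promoter is active, which is in skin epithelium and not in the dermis. Control mice were littermates without epidermal deletion and are labelled WT. The number of mice behind each library is not given in the sources used here, and with 1 library per genotype no test between genotypes was possible: every interval below covers counting error within these libraries only, and differences between mice, in cell recovery and between genotypes cannot be told apart.

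The hair shaft forms when matrix cells at the base of the follicle stop dividing, move up and fill with keratin. Its filaments pair a type I (acidic) with a type II (basic) hair keratin, and cysteine-rich keratin-associated proteins cross-link them. Hair keratins are switched on in steps: the human counterparts of Krt35 and Krt85 are known as early hair keratins, present from the upper matrix on, while that of Krt31 is known from the cortex higher up. S100a3 encodes a cysteine-rich, calcium- and zinc-binding protein of cuticle cells, Selenbp1 a selenium-binding methanethiol oxidase, and Dapl1 a small protein known from early epithelial differentiation.

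The type I genes lie close together on chromosome 11 of build GRCm39, on the minus strand. Krt31 spans chr11:99937472-99941377, Krt35 spans chr11:99983019-99987067 and Krt36 spans chr11:99992833-99996471, so that 41.6 kb separate Krt31 from Krt35 and 5.77 kb separate Krt35 from Krt36. Krt85, the type II gene, is at chr15:101413801-101422054 on the minus strand. S100a3 at chr3:90491966-90510009 and Selenbp1 at chr3:94840334-94852203 are on the plus strand, as is Dapl1 at chr2:59314997-59335368. All are protein-coding and were counted at the 3′ ends of their transcripts over the whole gene.

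Krt31 and Krt36 were the members found in the fewest cells, and their profiles over cell clusters were alike (below). The 250 bases before the RefSeq start of each, on the minus strand of build GRCm38.p6 at chr11:100050552-100050801 for Krt31 and chr11:100105627-100105876 for Krt36, are shown so that they can be compared. Capitals mark the core of the Lef1 and Tcf site, CTTTGA, since Lef1 was among the listed genes that differed with the number of members in a cell.
Krt31 upstream: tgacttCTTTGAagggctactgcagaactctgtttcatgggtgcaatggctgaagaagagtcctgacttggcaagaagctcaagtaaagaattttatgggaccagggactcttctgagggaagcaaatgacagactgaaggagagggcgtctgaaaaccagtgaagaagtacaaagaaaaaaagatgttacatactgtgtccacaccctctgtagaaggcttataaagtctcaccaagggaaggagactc
Krt36 upstream: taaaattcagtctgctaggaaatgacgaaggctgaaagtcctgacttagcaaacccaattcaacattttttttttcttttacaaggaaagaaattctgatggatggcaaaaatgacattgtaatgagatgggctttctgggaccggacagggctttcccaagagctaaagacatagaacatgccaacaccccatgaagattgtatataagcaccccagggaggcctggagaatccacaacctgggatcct

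The search covered CTTTGA and TTTATT, a Hoxc13-type homeobox site, on both strands from 250 bases before to 50 bases after the start. Only these exact letters were searched for, so other forms of such sites were not covered. Krt31 held 1 CTTTGA, at position -244 from its start, and no TTTATT. Krt36, Selenbp1 and Dapl1 held neither. S100a3 has 4 starts in the table, of which 1 held a CTTTGA and another a TTTATT. Of all 32851 promoters in the table, 16% held CTTTGA and 19.6% held TTTATT, so the matches are a description of these windows only. Promoters of Krt35 and Krt85 were not used here.

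Cells were kept with more than 1000 but fewer than 8000 genes found and with mitochondrial genes below 15% of UMIs, so that 4844 control and 3362 Gli2EKO cells entered the analysis, with a median of 12276 and 12169 UMIs per cell. The libraries share 0 cell barcodes. Gli2 itself had 84.1 CPM (a gene's UMIs per 1000000 UMIs of the cells summed) in control keratinocyte clusters and 85.02 CPM in Gli2EKO ones; the deleted exons are not given in the sources used here and counting takes place at the transcript's 3′ end, so Gli2 does not check the genotype labels. Shares of cells were compared after each cell was thinned to 5000 UMIs, which left out 487 control and 308 Gli2EKO cells of lower depth. The loss was uneven. Of the 2 hair shaft-like groups described below, the first kept 65 of 67 control and 33 of 36 Gli2EKO cells. The second kept 45 of 65 and 14 of 29. The part of this loss in the shares, co-detection and onset below was not tested.

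Krt35 was the hair keratin with the most UMIs. Summed over all cells it had 7586 UMIs (113 CPM, 95% Poisson interval 110 to 115) in control and 3163 UMIs (67.7 CPM, 65.4 to 70.1) in Gli2EKO. Its partner Krt85 had 3678 UMIs (54.6 CPM) in control and 1774 (38.0 CPM) in Gli2EKO. The other type I genes were scarce. Krt31 had 202 UMIs in control and 143 in Gli2EKO, at 3.0 and 3.06 CPM, and Krt36 had 88 and 67, at 1.31 and 1.43 CPM. In these 3′ counts a transcript gives at most 1 UMI whatever its length, so levels were not corrected for gene length. Differences between genes in capture or in the assignment of reads were not measured, which limits comparison of 1 gene with another.

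S100a3 was measured at 54.1 CPM in control and 112 CPM in Gli2EKO, Selenbp1 at 15.9 and 7.58 CPM, and Dapl1 at 57.3 and 71.3 CPM. The log2 ratio of Gli2EKO over control was -1.07 for Selenbp1, -0.73 for Krt35, -0.52 for Krt85, 0.32 for Dapl1 and 1.04 for S100a3, with counting intervals that did not include 0. Those of Krt31 (0.03, -0.29 to 0.35) and Krt36 (0.14, -0.35 to 0.61) did. Thus 3 of 7 members had a lower and 2 a higher summed level in Gli2EKO by this rule, against 39.1% and 17.5% of the 17975 genes with at least 50 UMIs, so the count of lower members is near that of genes in general. At a fold of 1.5, 2 members were lower and 1 higher, against 7.60% and 4.28% of genes. The median log2 ratio was 0.03 over the 7 members and -0.11 over all genes, so each ratio is read against a scale on which genes in general sit slightly below 0.

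These sums came from few cells. Of the control cells with a Krt35 UMI, 306 of 604 had exactly 1, while 140 had 10 or more and the highest had 381, so that 30 cells held at least 50% of all Krt35 UMIs. In Gli2EKO 102 of 216 had exactly 1, 58 had 10 or more, and 14 cells held at least 50%. Krt85 was spread more evenly, with 53 control and 19 Gli2EKO cells needed for that share and a highest cell of 149 and 125 UMIs. For Krt31 it took 4 control and 2 Gli2EKO cells, and for Krt36 it took 3 and 5.

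S100a3 was the extreme case. Of its 5210 Gli2EKO UMIs 3425 came from 1 cell, and of its 3647 control UMIs 1237 came from 1 cell; the next cells had 414 and 189. In the Gli2EKO cell S100a3 made up 15.6% of all 22012 UMIs, beside 21 of Krt35, 7 of Krt85, 8 of Krt36, 155 of Dapl1 and 0 of Krt31 and Selenbp1. In the control cell it made up 8.17% of 15136 UMIs, beside 3 of Krt35, 6 of Krt36, 10 of Dapl1 and 0 of Krt31, Krt85 and Selenbp1. In both cells S100a3 had far more UMIs than any other member. Without the highest cell of each library S100a3 was at 35.8 CPM in control and 38.2 in Gli2EKO, a log2 ratio of 0.10 (0.01 to 0.18), so 2 cells set most of its difference between the libraries. Removing the highest cell in the same way took Krt31 from 0.03 to -0.48 (-0.89 to -0.09), while Krt35 (-0.77), Krt85 (-0.57), Selenbp1 (-1.09) and Dapl1 (0.41) kept their direction. Krt36 was at 0.34, with an interval that included 0 (-0.20 to 0.87).

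**Figure D1:**
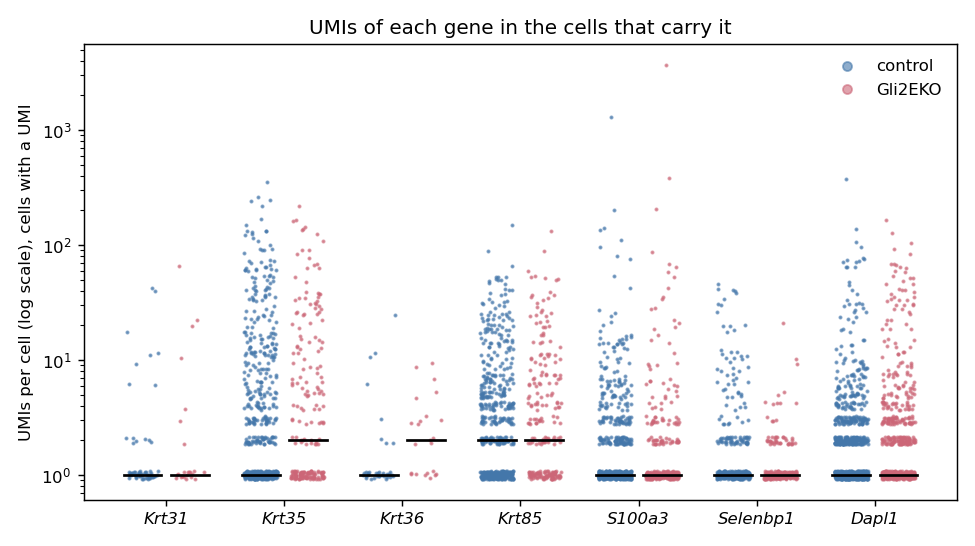
UMIs per cell of each gene (log axis) in the cells that carry at least 1, for control (blue) and Gli2EKO (red); each point is a cell, shifted a little at random in both directions so that points do not cover each other, and black lines are medians. Medians are 1 or 2 UMIs for every gene, and 1 cell in each library stands far above the rest for S100a3, with 1237 UMIs in control and 3425 in Gli2EKO.

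To compare shares of cells at equal depth, the thinned cells were used. Krt35 was found in 369 of 4357 control cells (8.47%, Clopper-Pearson 7.66 to 9.34) and 128 of 3054 Gli2EKO cells (4.19%, 3.51 to 4.96), and Krt85 in 7.96% and 4.03%. The ratio of the shares, Gli2EKO over control, was 0.49 (0.40 to 0.61) for Krt35 and 0.51 (0.41 to 0.62) for Krt85. For S100a3, in 6.33% and 5.14% of cells, it was 0.81 (0.66 to 0.99). Selenbp1 (3.63% and 3.67%) and Dapl1 (11.1% and 10.7%) were found in shares whose ratios, 1.01 (0.79 to 1.30) and 0.96 (0.84 to 1.11), included 1. The shares of Krt31 (0.60% and 0.46%) and Krt36 (0.48% and 0.33%) rest on 10 to 26 cells each.

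Free RNA gives stray UMIs, so the same shares were taken in immune-like and endothelial-like cells, 116 in control and 78 in Gli2EKO, with a median of 12186 and 14709 UMIs. Krt35 was found in 3.45% and 2.56% of them, Krt85 in 1.72% and 1.28%, S100a3 in 0.86% and 2.56%, and Dapl1 in 2.59% and 1.28%. Krt31 and Krt36 were found in 0 of these cells, and the limit set for a count of 0, 3 cells of the total, is a share of 2.59% in control and 3.85% in Gli2EKO. Selenbp1 was found in 2.59% of the control and 7.69% of the Gli2EKO background cells, and its share over all Gli2EKO cells does not exceed that level. The background cells are few, and the upper 95% limits of their shares also exceed the shares over all Gli2EKO cells for Krt35 (8.96%), Krt85 (6.94%) and S100a3 (8.96%), and over all control cells for Krt35 (8.59%) and Selenbp1 (7.37%). At least 2 members were found in 1 background cell of each library and at least 3 in 0 of the 116 and 0 of the 78, with the same limits of 2.59% and 3.85%.

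At least 3 of the 7 members were found in 142 control cells (3.26%, 2.75 to 3.83) and 53 Gli2EKO cells (1.74%, 1.30 to 2.26), a ratio of 0.53 (0.38 to 0.73). The background cells are too few to bound a share as low as that of Gli2EKO. At least 5 were found in 29 and 11 cells (0.54, 0.24 to 1.12), and all 7 in 3 control cells and 1 Gli2EKO cell. The cells with 3 or more members lay in the inner follicle cluster (described next) for 108 of 142 in control and 47 of 53 in Gli2EKO. Of the 34 control cells outside it, 21 were among the 8% with the highest doublet score, as were 3 of the 6 in Gli2EKO, while 5 of the 108 and 0 of the 47 inside were. With these high-score cells removed the ratio was 0.61.

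Clusters were made without the 7 genes among the variable genes. Of 19 clusters, the one with the most Krt35 UMIs held 965 control and 364 Gli2EKO cells and joined inner root sheath, matrix and shaft cells; it is called the inner follicle cluster. It made up 19.9% of control and 10.8% of Gli2EKO cells, a ratio of 0.54 (0.48 to 0.61), close to that of the cells with 3 or more members. Split again, it gave 9 groups, of which 2 were hair shaft-like by markers other than the 7 genes (Dsg4, a desmosomal cadherin of the shaft, and Hoxc13, a homeobox factor needed for hair keratin expression, among them). The first, with 67 control and 36 Gli2EKO cells, was led by S100a3, Krt35 and Krt85, and the second, with 65 and 29 cells, by Krt35, Krt85 and Dsg4. Together they were 2.73% of control and 1.93% of Gli2EKO cells (ratio 0.71, 0.52 to 0.96). Within the inner follicle cluster they were 13.7% of control and 17.9% of Gli2EKO cells (1.31, 0.95 to 1.77).

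The levels of the members did not all follow the same pattern over the hair shaft-like groups. Krt35 was high in both hair shaft-like groups, at 3149 and 2921 CPM in control, as was Krt85, at 1363 and 1396 CPM. Krt31 had 0 UMIs in the 103 cells of the first group in either library and was at 184 CPM in control and 649 CPM in Gli2EKO cells of the second. Krt36 had 7.76 and 43.8 CPM in the first and 62.7 and 229 CPM in the second. Dapl1 was at 272 and 504 CPM in the first and at 930 and 1904 CPM in the second. S100a3 ran the other way in control, with 2020 CPM in the first and 267 in the second, and in Gli2EKO, with 8997 and 3388. Without the highest cell the control values were 660 and 154 CPM, and those of Gli2EKO 702 and 1216 CPM, so in Gli2EKO the order of the groups rests on 1 cell. These levels describe the groups and were not tested, since the cells were grouped by genes that vary with the members.

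The second group had a median of 5551 UMIs per cell against 12951 in the first, and this difference in depth goes with the levels above; its part in them was not tested. In the thinned cells of both libraries, Krt35 was found in 98.0% of 98 cells of the first and 93.2% of 59 cells of the second, and Krt85 in 92.9% and 98.3%. Krt31 was found in 0 and 20.3%, Krt36 in 5.10% and 30.5%, and Dapl1 in 23.5% and 49.2%, so at equal depth the 3 genes were also found more often in the second group. Each of the 3 was found more often there in either library, Krt36 for instance in 1 of 65 against 12 of 45 control cells and in 4 of 33 against 6 of 14 Gli2EKO cells. S100a3 went opposite ways: it was found in 33 of 65 cells of the first (50.8%) and 14 of 45 of the second (31.1%) in control, and in 13 of 33 (39.4%) and 9 of 14 (64.3%) in Gli2EKO.

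**Figure D2:**
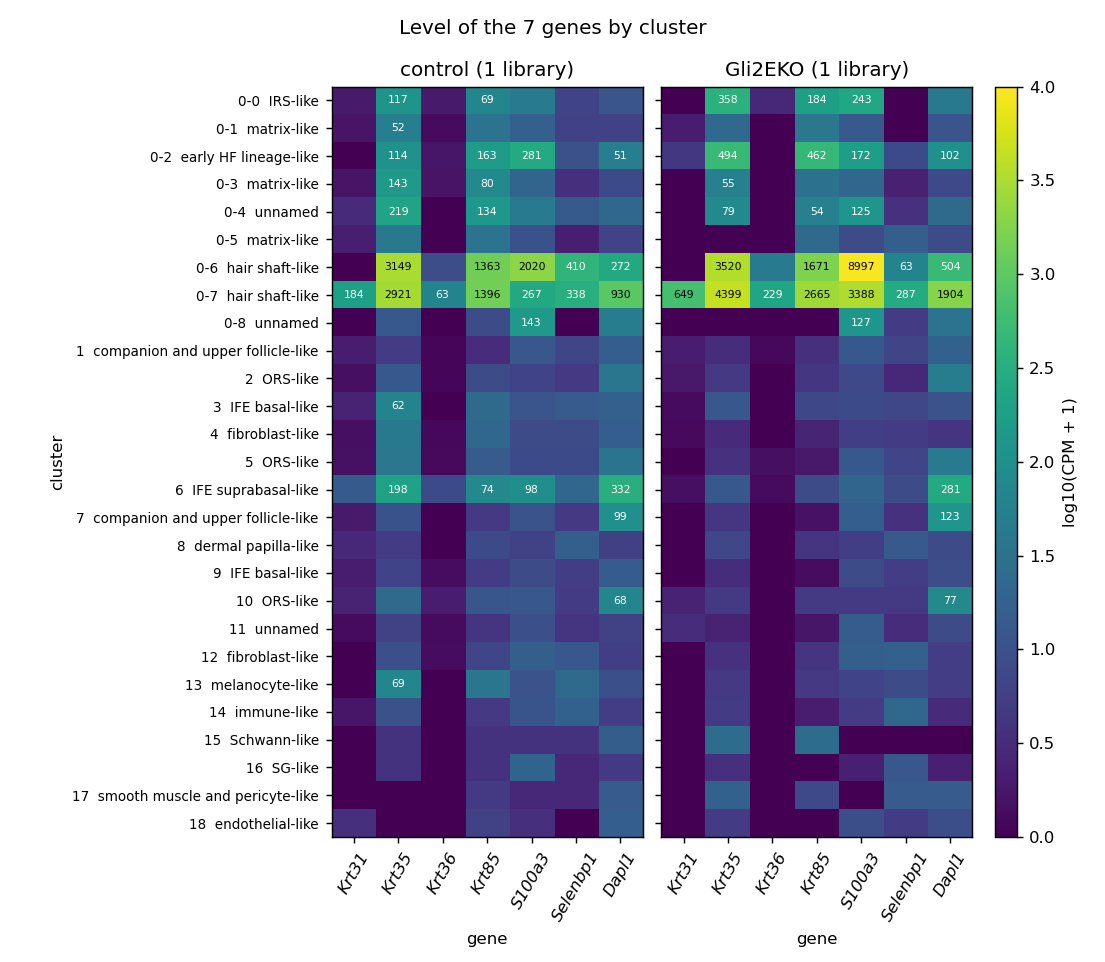
Level of the 7 genes (columns) in each cluster (rows) as log10(CPM + 1), for the control library (left) and the Gli2EKO library (right); values of 50 CPM or more are printed. Krt31 reaches 50 CPM only in cluster 0-7, the second hair shaft-like group, whereas Krt35 and Krt85 are above 1000 CPM in both groups, 0-6 and 0-7, and Dapl1 is also high in cluster 6, the suprabasal-like epidermis.

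Outside the shaft the members went separate ways. Krt35 and Krt85 continued at a lower level in the early hair follicle lineage-like group led by Aldh1a3, Kitl and Foxq1 (114 and 163 CPM in control, 494 and 462 CPM in Gli2EKO), where Krt35 was found in 29 of 104 thinned control and 12 of 28 Gli2EKO cells. An unnamed group led by Msx1, Dlx2 and Krt28 had the other direction between the libraries, with Krt35 at 219 CPM in control (25 of 94 thinned cells) and 79.1 CPM in Gli2EKO (5 of 35) and Krt85 at 134 and 54.1 CPM. In the inner root sheath-like group led by Krt71, Krt25 and Krt27, Krt35 was at 117 and 358 CPM and Krt85 at 68.6 and 184 CPM, but 125 of the 243 control and 126 of the 385 Gli2EKO UMIs of Krt35 came from 1 cell each, and it was found in 9 of 147 and 9 of 59 thinned cells. S100a3 was at 281 and 172 CPM in the lineage-like group. It was at 143 and 127 CPM in a group led by Krt75, Liph and Wnt11, in which Krt35 had 11.7 and 0 CPM. There 71 of the 98 control UMIs of S100a3 came from 1 cell. In the inner root sheath-like group S100a3 was at 44.0 CPM in control (9 of 147 thinned cells) and at 243 CPM in Gli2EKO (16 of 59). The matrix-like group led by Shh, Bach2 and 9530036O11Rik had Krt35 at 143 CPM in control and 54.6 CPM in Gli2EKO, with Krt31 and Krt36 each under 1 CPM. The inner follicle cluster held 72.6% of control and 92.3% of Gli2EKO Krt35 UMIs.

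Dapl1 was not a shaft gene by number of molecules. Only 17.9% of its control UMIs and 17.0% of its Gli2EKO UMIs came from the hair shaft-like groups, while the suprabasal-like cluster, led by Flg, Lor and Krt10, held 45.4% and 55.5% at 332 and 281 CPM. A companion and upper follicle-like cluster led by Wfdc18, Krt6a and Kalrn had 99.2 and 123 CPM. Of the thinned cells with Dapl1, 366 of 484 in control and 268 of 327 in Gli2EKO had none of the other 6 members. The hair shaft-like groups held 49.5% of control and 22.6% of Gli2EKO Selenbp1 UMIs. Selenbp1 was found alone in 70 of 158 control and 84 of 112 Gli2EKO cells, and Krt36 alone in 3 of 21 and 0 of 10.

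The suprabasal-like cluster also held some of the control cells richest in hair keratins. The control cell with the most Krt31, Krt35, Krt36, Krt85 and Dapl1 UMIs (41, 381, 23, 149 and 404) was there, with 66801 UMIs in all and a doublet score not among the highest 8%. Through such cells this cluster held 13.8% of control Krt35 UMIs against 2.43% in Gli2EKO, 32.7% of Krt31 UMIs against 2.10% and 40.9% of Krt36 UMIs against 2.99%. Krt35 was found in 16 of its 211 thinned control cells, 3 of them with a high doublet score, and in 2 of 273 in Gli2EKO. Whether they are single cells was not tested.

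Within the 2 hair shaft-like groups the comparison of the libraries went another way than over all cells. In 132 control and 65 Gli2EKO cells, the level was higher in Gli2EKO for 6 of 7 members by the interval rule, against 7.22% of the 6125 genes with 50 UMIs there, and lower for 1, Selenbp1, against 6.66%. These shares are not like for like, since the rule calls smaller ratios in genes with more UMIs. Krt35 had 4238 control and 2274 Gli2EKO UMIs here, and Krt36 had 37 and 61. The intervals also take UMIs of 1 cell as independent. At a fold of 1.5, 4 members were higher (5.89% of genes) and 1 lower (6.16%). The median log2 ratio over the members was 0.92 and that over all genes -0.01. For the sum of both groups, the direction of the 6 was the same without the highest cell of each library and with the inner follicle cluster split at resolution 0.3, settings chosen after the data were seen. None of these cells was among those with the highest doublet scores. In the second group alone and without the highest cells, the 6 were also higher, from a log2 ratio of 0.43 for Krt35 to 2.98 for S100a3. In the first group alone and without them, Krt35 (0.13, 0.04 to 0.23), Krt85 (0.24, 0.10 to 0.38) and Krt36 (25.7 against 1.13 CPM) were higher, the intervals of S100a3 (0.09, -0.12 to 0.30) and Dapl1 (-0.29, -0.78 to 0.18) included 0, and Krt31 had 0 UMIs.

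Krt35 was at 3070 CPM in control and 3796 CPM in Gli2EKO cells of these groups, a log2 ratio of 0.31 (0.23 to 0.38), and Krt85 at 1374 and 1983 CPM (0.53, 0.42 to 0.63). Both were in nearly every cell, Krt35 in 122 of 132 and 63 of 65, and Krt85 in 127 and 63. The median cell had 1575 CPM of Krt35 in control and 2238 in Gli2EKO, and 1016 and 1431 CPM of Krt85, so the summed values were not set by single cells. The 90th percentiles, 6830 and 8785 CPM of Krt35, show how far cells of 1 group differ from each other, which is more than the libraries do.

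Krt31 (63.7 and 204 CPM) and Krt36 (26.8 and 102 CPM) had log2 ratios of 1.68 (1.27 to 2.09) and 1.93 (1.31 to 2.56). Krt31 was found in 10 of 132 control and 7 of 65 Gli2EKO cells, so its ratio rests on 17 cells, and 37 of its 88 control and 63 of its 122 Gli2EKO UMIs came from 1 cell each. Without these it was at 37.2 and 101 CPM (1.45, 0.88 to 2.02). Krt36 was found in 19 cells of each library. S100a3 was at 1412 and 7236 CPM, and at 522 and 1577 without the highest cells, with log2 ratios of 2.36 (2.28 to 2.43) and 1.59 (1.45 to 1.74). It was found in 53.0% of control and 50.8% of Gli2EKO cells, with a median of 66.2 and 58.4 CPM per cell, so the median cell did not differ the way the sums did. Dapl1 was at 500 and 943 CPM (0.92, 0.75 to 1.08), in 37.1% and 41.5% of cells.

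Selenbp1 was the exception. Its level was 385 CPM in control and 134 CPM in Gli2EKO cells of these groups, a log2 ratio of -1.53 (-1.89 to -1.19), and -1.78 (-2.19 to -1.39) without the highest cells. It had UMIs in 59 of 132 control and 21 of 65 Gli2EKO cells, and the 90th percentile per cell was 1151 against 347 CPM. In the first group it was at 410 against 63.3 CPM (-2.70, -3.33 to -2.12); in the second, at 338 and 287 CPM, the interval included 0 (-0.24, -0.71 to 0.22); whether the groups differ in this was not tested. Its near copy Selenbp2, whose reads a counter could confuse with it, had 0 UMIs in these cells in both libraries.

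**Figure D3:**
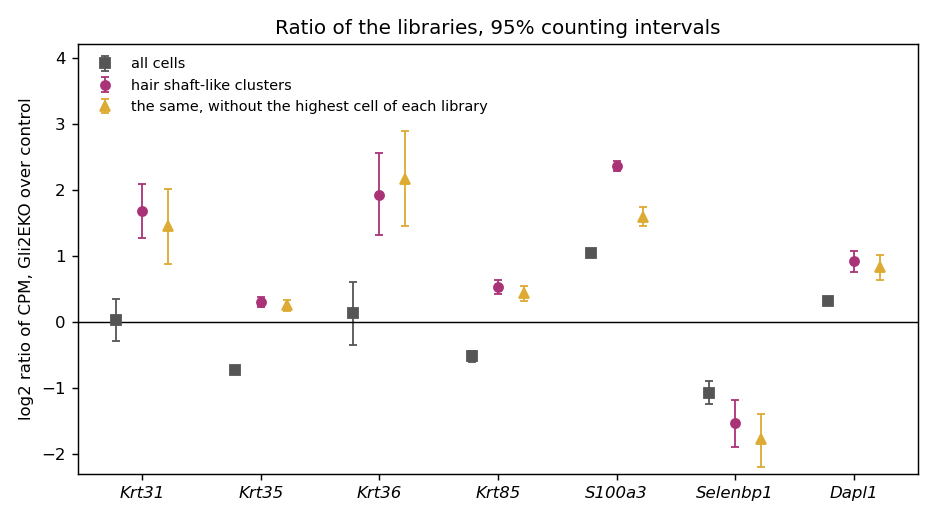
Log2 ratio of CPM, Gli2EKO over control, for each gene over all cells (grey squares), in the 2 hair shaft-like groups (purple circles) and there without the highest cell of each library (yellow triangles); bars are 95% counting intervals, with 1 library per genotype. Krt35 and Krt85 lie below 0 over all cells and above 0 in the hair shaft-like groups, and Selenbp1 lies below 0 in all 3.

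The same was seen in the cells with 3 or more members, a set chosen by the members themselves and given as a description: 6 members were higher and Selenbp1 lower (323 and 104 CPM), against 9.0% and 9.09% of genes. The limits of the interval rule given above hold here too. Among all hair keratins of the hair shaft-like groups, Krt35 made up 92.7% of type I UMIs in control and 82.4% in Gli2EKO, and Krt85 made up 93.2% and 77.95% of type II. The sum of type I over type II was 2.25 and 1.81. Of the near copies that could share reads, Krt33a had 25.4 and 71.8 CPM, Krt33b 1.45 and 6.68 CPM and Krt34 0 and 5.01 CPM beside Krt31, and Krt81, Krt83 and Krt86 had 3.62, 10.1 and 0 CPM in control and 66.8, 117 and 25.04 CPM in Gli2EKO beside Krt85. Values of these paralogs are uncertain to the extent that the counting could split their reads.

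Co-detection was measured in thinned cells as the number of cells with both genes over the number that independent detection would give. Such a ratio can be higher for genes found in fewer cells, so pairs or libraries with unlike shares are not directly comparable. All 21 pairs had a ratio over 1 in control, each with a counting interval above 1, and 18 of 21 intervals were above 1 in Gli2EKO. The median ratio was 5.46 in control and 6.82 in Gli2EKO. The cells share library and cell type, so genes of 1 tissue are found together more often; inside the inner follicle cluster the medians were 2.81 and 3.12, with 20 of 21 and 17 of 21 intervals above 1.

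Krt35 and Krt85, which pair in 1 filament, were found together in 219 control and 78 Gli2EKO cells, which is 59.3% and 60.9% of the cells with Krt35 and 63.1% and 63.4% of those with Krt85. The ratios were 7.45 and 15.1 over all cells, and 2.47 and 2.53 inside the inner follicle cluster. The highest ratios over all cells were those of Krt31 with Krt36, the 2 genes found in the fewest cells. They were 63.8 in control and 87.3 in Gli2EKO, though from 8 and 4 cells. Every Gli2EKO cell with Krt36 (10 of 10) and 16 of 21 control cells also had Krt35, and the same numbers had Krt85. The lowest ratio was that of Krt35 with Dapl1 in control, 1.78, and that of Selenbp1 with Dapl1 in Gli2EKO, 1.42 (0.83 to 2.27). Of the Selenbp1 cells 46.2% had Krt35 in control and 12.5% in Gli2EKO.

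**Figure D4:**
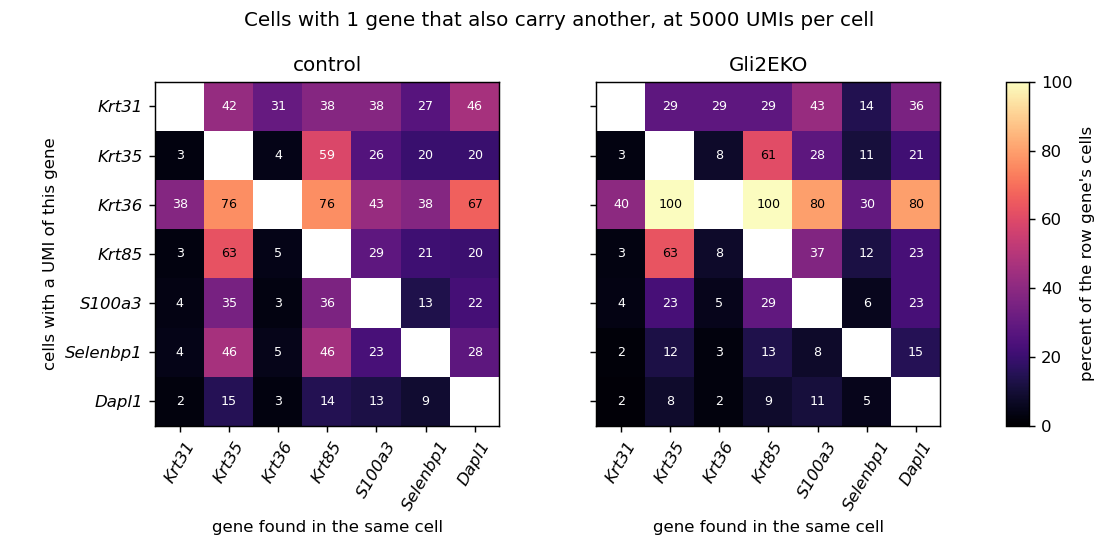
Percent of the cells with 1 gene (row) that also had a UMI of another (column), in control (left) and Gli2EKO (right) cells thinned to 5000 UMIs. The row of Krt36 is high in the columns of Krt35 and Krt85 (76% in control, 100% in Gli2EKO), while the columns of Krt31 and Krt36 are low in the rows of the other 5 genes.

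Whether a gene is found before another can be read only as an order of detection, since all cells are of 1 age and a gene with more UMIs is found more often. In cells with only 1 gene of a pair, 15 of 21 pairs leaned the same way in both libraries with intervals outside 50%. Krt35 and Krt85 did not: among cells with only 1 of them, Krt35 was the one in 54.0% of control cells (47.9 to 59.9) and 52.6% of Gli2EKO cells (42.1 to 62.97). Against S100a3, Krt35 was the one in 60.3% of control cells (55.6 to 64.8) and 43.2% of Gli2EKO cells (36.4 to 50.1).

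Inside the inner follicle cluster, which leaves out the epidermal Dapl1 cells, 17 pairs were ordered. Stray UMIs in the cells of this cluster were not measured. Of cells with only Krt35 or only Selenbp1, Krt35 was the one in 95.7% in control and 94.8% in Gli2EKO, and against Dapl1 in 81.5% and 84.2%. S100a3 was the one against Dapl1 in 71.2% and 78.7%, and against Selenbp1 in 77.8% and 88.2%. Of cells with only Krt31 or only Krt35, Krt31 was the one in 0.87% and 0%, that is, in 2 of 229 and 0 of 81 cells. Krt31 and Krt36 could not be ordered, with 3 against 10 cells in control and 0 against 6 in Gli2EKO.

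The share of cells with a gene was then taken by how many of the other 6 members the cell had. In the inner follicle cluster of control, Krt85 was in 11.1% of cells with none of the others, 46.2% with 1, 70.3% with 2 and 94.7% with 3, and Krt35 in 8.30%, 42.2%, 65.6% and 76.0%. S100a3 was in 9.64%, 22.8%, 28.8% and 32.6%, and then in 69.0% of cells with 4 to 6. Dapl1 was in 17.5% of cells with 3 others and 75.0% with 4 to 6, and Selenbp1 in 22.4% and 66.7%. Krt36 was at 23.8% and Krt31 at 18.6% of cells with 4 to 6 others, and at most 2.36% and 0.23% below that. They were found in only 16 and 9 cells of this cluster, against 42 and 43 cells with 4 to 6 others. Neither could reach 50%, so this scale does not place them. The early keratins were thus in most cells with 2 other members, and the cuticle and differentiation genes in most with 4 or more.

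In Gli2EKO the early keratins also came first. Krt85 was in 44.2% of cells with 1 other member and 85.3% with 2, Krt35 in 40.0% and 66.7%, and S100a3 and Dapl1 in 91.7% and 78.6% of cells with 4 to 6. Krt36 reached 47.1% (8 of 17 cells) and Krt31 22.2% (4 of 18). Selenbp1 reached 33.3% (5 of 15, 11.8 to 61.6), against 66.7% (20 of 30, 47.2 to 82.7) in control, 2 intervals that overlap.

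Over all cells, stray UMIs and epidermal Dapl1 included, Krt35 and Krt85 passed 50% at 2 other members in control and at 3 in Gli2EKO. In control they were in 55.9% and 54.6% of cells with 2 others. In Gli2EKO they were in 41.2% and 47.7% of those cells and in 64.3% and 81.8% of cells with 3, the last from 14 and 11 cells. S100a3 and Dapl1 passed 50% with 4 to 6 others in both libraries, Selenbp1 in control (67.6%) and not in Gli2EKO (31.3%), and Krt31 and Krt36 in neither. In control Krt31 and Krt36 were found in 26 and 21 cells, against 59 and 58 cells with 4 to 6 others. Neither could pass 50% there.

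**Figure D5:**
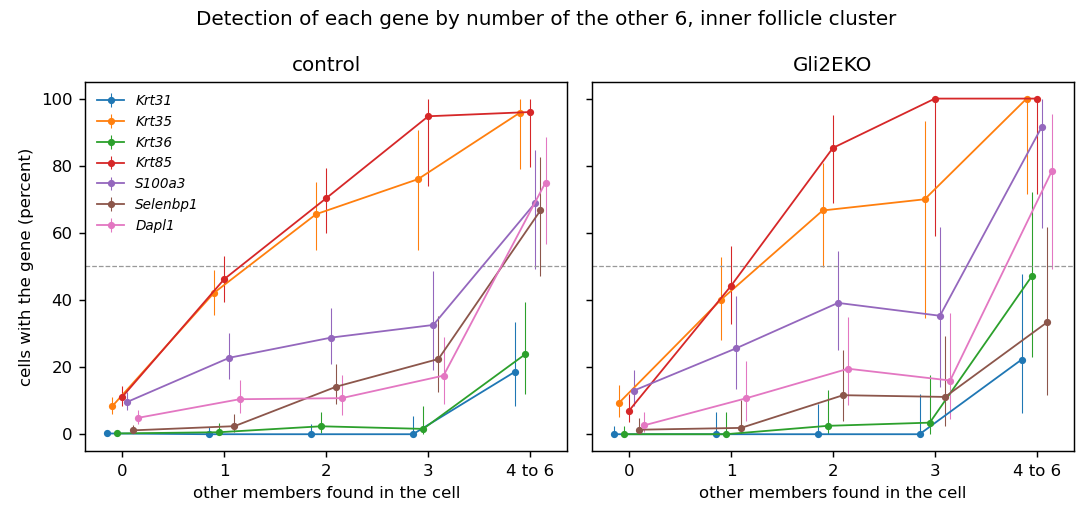
Percent of inner follicle cells with a UMI of each gene, by number of the other 6 members found in the cell (thinned to 5000 UMIs), in control (left) and Gli2EKO (right); bars are 95% Clopper-Pearson intervals and the dashed line marks 50%. Within this cluster Krt35 and Krt85 pass 50% at 2 other members in both libraries, and Krt31 and Krt36 do not pass it. Krt31 in both libraries and Krt36 in control were found in too few cells to pass it.

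A second scale used no member: the number of the 70 other hair keratin and keratin-associated protein genes found in a cell. It is not a scale of the shaft alone. It counts Krtap17-1, 1 of the 10 leading genes of an outer root sheath-like cluster. Krtap17-1 was found in 113 control and 76 Gli2EKO cells with none of the 7 members. Among control cells with 0 of them, Krt35 was in 7.47% and Krt31 in 0.35%; among the 31 cells with 3 or more, Krt35 was in 32.3%, Krt31 in 29.0%, Krt36 in 19.4% and S100a3 in 58.1%. In Gli2EKO the shares in the 13 such cells were 46.2%, 38.5%, 30.8% and 69.2%. S100a3 had the highest share of the 7 in both libraries, with an interval (39.1 to 75.5 in control) that overlapped that of Krt85 (24.5 to 60.9), and the intervals of Krt31 (14.2 to 48.0) and Krt35 (16.7 to 51.4) overlapped as well.

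Genes listed for other parts of the programme were then followed by number of members. Of 12 other hair keratins, 7 were higher in cells with 3 or more members than in cells with none, by intervals in both libraries, and 0 were lower. Of all 29048 genes with a UMI in these cells that are no members, 3.81% were higher and 5.08% lower by the same rule. For 5 of the 7 the level came from 1 or 2 cells in at least 1 library: Krt82, Krt39, Krt33b, Krt33a and Krt83. Krt32, a cuticle keratin, was found in 7 of 142 control and 6 of 53 Gli2EKO cells with 3 or more members, at 71.8 and 208 CPM against 2.47 and 4.08 CPM in cells with none. Their sum was 5.43 CPM in control cells with no member, 170 CPM with 3 to 4 and 228 CPM with 5 to 7. In Gli2EKO it was 6.16, 47.6 and 2291 CPM, the last from 11 cells and 126 UMIs. Of 58 keratin-associated protein genes 7 were higher, 3 of them from 1 or 2 cells in a library, 0 lower and 16 without a UMI; Krtap8-1, in 28 control and 12 Gli2EKO cells, was at 172 and 706 CPM against 5.68 and 2.66 CPM.

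Of 12 hair shaft regulators 8 were higher and 0 lower, each of the 8 from at least 3 cells per library. Of 7 matrix genes 4 were higher and 0 lower. These were Cldn10 and the genes Lef1, Msx1 and Msx2, which are also among the 12 regulators. Lef1, the factor through which Wnt signals act in the matrix, was at 1221 CPM in control and 1042 CPM in Gli2EKO against 121 and 106 CPM, and Hoxc13 at 376 and 498 CPM against 25.7 and 18.3 CPM. Of 10 structural and cross-linking genes 4 were higher (Crym from 2 Gli2EKO cells) and 1, Lgals3, lower; Dsg4 was at 201 and 283 CPM against 0.62 and 0.42 CPM. Padi3, which encodes an enzyme that modifies S100a3 protein, was at 36.6 and 30.2 CPM against 6.11 and 2.75 CPM. Of 12 other S100 genes 6 were lower, S100a6 among them (604 and 819 CPM against 1860 and 1863 CPM), and 1, S100a14, was higher.

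The cell division genes did not follow the members evenly: their sum was 1867 CPM in control cells with no member, 2041 CPM with 3 to 4 and 703 CPM with 5 to 7, and in Gli2EKO 1606, 2081 and 109 CPM, the last from 6 UMIs in 11 cells. Of the 12 genes 1 was lower in cells with 3 or more members and 0 higher. Among 10 inner root sheath genes Krt27, Krt28 and Krt73 were higher and Krt71 lower in both libraries. Of 7 suprabasal genes, which mark another cell type, 0 were higher and 2, Krt1 and Krt10, lower in both libraries. Their sum was 2106 CPM in control cells with no member and 5350 CPM with 3 to 4, and 4151 and 1886 CPM in Gli2EKO. The higher control sum came from Lor, Flg and Calm4, with 961 UMIs of Lor in 17 and 988 of Flg in 9 of the 142 control cells with 3 or more members, against 1 UMI of each in the 53 Gli2EKO cells. Their part in the values of those cells was not tested.

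Across 53 profiles of clusters and libraries with at least 20 cells, the gene most like Krt35 among genes that are no members was Dsg4 (Pearson r of log2(CPM + 10) 0.93), followed by Sp6, Dclk3, Mt4 and St14, and Krt85 was also most like Dsg4 (0.94). Krt31 was most like Krtap11-1 (0.97) and Krtap7-1 (0.94), Krt36 most like Hephl1 (0.92), S100a3 most like Dclk3 (0.90) and Ly6g6d (0.88), and Selenbp1 most like Dsg4 (0.83). Dapl1 was most like Bicdl2 (0.84) and Blmh (0.83). Between members r was 0.98 for Krt35 with Krt85, 0.89 for Krt31 with Krt36 and 0.47 for Krt31 with S100a3. The profiles share their libraries and clusters, so these are descriptions.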

How the data were processed

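The authors processed the reads with Cell Ranger 9.0.1 against GRCm39 with the GENCODE M30 annotation and deposited, for each library, UMI counts per gene and barcode as whole numbers without normalization. CPM, percents, ratios and log2 values were computed here from these counts with SciPy 1.17.1 and Scanpy 1.11.5 under Python 3.11.15. Groups came from the submitters' genotype labels. Positions were looked up by identifier in GENCODE M39, which uses that build, and promoters came from RefSeq for 5 of the 7 members (8 starts). The members and lists were chosen with earlier results of these data known.

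The study removed doublets with scDblFinder; here doublets were kept in the main values and the 8% of cells with the highest Scrublet score in each library were removed as an alternative. Clustering used 2000 variable genes without the members, 20 principal components, the Harmony algorithm written anew, 20 neighbours and Louvain at resolution 0.5; the split of the inner follicle cluster at 0.5 was chosen after the data were seen. A class name needed 3 or more markers, each with UMIs in 10% of the cells; clusters rebuilt here need not be those of the study. A leading gene had UMIs in 25% or more of the cells. Named genes are the members, the listed genes, the 5 genes most like each member among those with 200 UMIs, and the 3 that lead a cluster. Intervals are at 95%: Poisson for CPM, Clopper-Pearson for shares and conditional binomial for ratios. The ratio, its interval and the thinning were tested on simulated data. Ratios over all genes had 0.5 UMIs added. No test between genotypes was made, since each is 1 library.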

Additional observations from a re-analysis of the deposited data

How the results depend on the processing

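No paired analysis was possible because each genotype is 1 library and no test was made. The ratio of the shares of cells with 3 or more members, 0.53, stayed inside its counting interval under every alternative run, from 0.48 with at least 4 members to 0.64 with cells thinned to 2000 UMIs. The median co-detection ratio moved with several settings: in control from 5.46 to 9.07 at 2000 UMIs, 2.83 without thinning, 18.1 with at least 2 UMIs per gene and 2.81 in the inner follicle cluster only (chosen after seeing the data), and in Gli2EKO from 6.82 to 10.6, 3.56, 26.6 and 3.12 in the same order, and to 11.7 without Selenbp1 and Dapl1 (6.42 in control). In the order of onset over all cells, 5 of 7 members kept their place in control at 2000 UMIs and 5 without thinning, and 7 in Gli2EKO under both; with at least 2 UMIs, 4 did in control and 4 in Gli2EKO, and the cause was not tested. The count of pairs ordered alike was 15 under 6 alternatives, but of the original 15 pairs 13 were among them at 2000 UMIs and 11 with at least 2 UMIs, with none in the opposite order; the inner follicle cluster only gave 17. Without Selenbp1 and Dapl1, 0 of 5 members were lower in cells with 3 or more, because the only lower one was Selenbp1. At resolution 0.8, 1 member instead of 6 was highest in the cluster with the most Krt35 UMIs; the cause was not tested. Over all cells, 3 members were lower in every alternative but 2: 4 without the highest cells, and 2 without Selenbp1 and Dapl1. With high doublet scores removed the log2 ratio of Krt35 was -0.52 and that of Krt85 -0.36, and with each cell weighted equally they were -0.49 and -0.25. Values of Krt31 and Krt36 rest on 10 to 26 thinned cells per library.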
